A study of Mus musculus with 4 samples.

Results

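The mitochondrial ribosomal protein genes were taken as all genes whose symbol begins with Mrpl or Mrps followed by a digit, the prefixes for proteins of the large and the small subunit of the mitochondrial ribosome. They were chosen by symbol through the platform annotation, using probe sets with 1 symbol and a signal of 500 or more on any of the 4 arrays, and each gene was read from its brightest probe set. The rule found 65 members of 12393 named genes, 40 of the large and 25 of the small subunit, and 4645 of all genes reached the same limit. RNA came from primary embryonic fibroblasts grown from e14.5 mouse embryos, and 1 Affymetrix expression array was run for each of 4 groups. The groups were wild-type cells in normoxia (21% oxygen), wild-type cells in hypoxia (0.1% oxygen), tri-CH1 cells in normoxia and tri-CH1 cells in hypoxia. All cells were held for 6 h at 37 °C under 5% carbon dioxide, in medium brought to the same oxygen level overnight. The tri-CH1 cells lack the CH1 domain, a protein-binding module of the coactivators p300 and CBP, in both p300 alleles and in 1 CBP allele, so that 1 CBP allele keeps it. How many embryos or cultures stood behind an array is not given in the sources used here, and with 1 array per group no difference could be tested against variation between cultures.

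The mitochondrial ribosome translates the messenger RNAs made from mitochondrial DNA, all of which encode subunits of the respiratory chain and of ATP synthase. Its ribosomal RNAs come from mitochondrial DNA, whereas every one of its proteins is encoded in the nucleus, made in the cytosol and imported. Some of the proteins descend from those of bacterial ribosomes and others were added in the mitochondrial lineage, and their genes lie scattered over the genome although the products are needed together. Cells short of oxygen are known to lower respiration through hypoxia-inducible factor, whose transactivation domain binds the CH1 domain of p300 and CBP.

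The oxygen labels were borne out by 8 known hypoxia-induced genes, all of which had higher signals in hypoxia in both genotypes; Bnip3, a mitophagy receptor, was 26.2-fold higher in wild type and 21.1-fold higher in tri-CH1. Of 9 fibroblast markers, 7 were at 500 or more on each array, though not the same 7, with summed signals from 111602 to 122759, carried by collagens, Vim and Fn1. Thy1 read 13148, 12389, 3837 and 3274 in wild type in normoxia and hypoxia, then tri-CH1 in normoxia and hypoxia, and Pdgfrb 1337, 517.5, 689.6 and 486. Epcam, Cdh1, Pecam1, Cdh5, Ptprc, Myod1 and Myog, defining markers of epithelial, endothelial, blood and muscle cells, were under 200 on every array. Other markers of these lists were not: Krt8 lay between 192 and 502, Krt18 between 269 and 588, Kdr between 302 and 390.5, Lyz2 between 567.5 and 862 and Des between 285.5 and 393, and Krt19 and Acta1 reached 3881 and 3494. Depth in the sense of signal over background differed, since the arrays were multiplied by scale factors from 3.46 to 10.3 to reach the common target of 500, and the background after scaling ran from 139 to 393. The wild-type normoxia array had the lowest of both and was from a different lot than the remaining 3.

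Across the 4 arrays the members' signals lay between 306.2 and 2128, and none was under 200, so that all 65 members stood above the floor of 200 used for dim signals. The summed signal of the members was 61625 in wild type in normoxia, 52530 in wild type in hypoxia, 64030.5 in tri-CH1 in normoxia and 54442 in tri-CH1 in hypoxia. Both hypoxia arrays were thus below both normoxia arrays, for the large subunit and for the small subunit alike. The member with the highest mean signal was Mrps14, a small-subunit protein with a bacterial homologue, which gave signals of 1878, 1969.6, 2095 and 2036 in the same order of groups. Mrpl17 followed with 1986, 1522, 2128 and 1419.8, and Mrpl20 with 2017, 1726, 1843 and 1433; both are large-subunit proteins with bacterial homologues. Mrpl33, Mrps25 and Mrps31 had the lowest mean signals, 404.6, 465 and 493. Signals of different probe sets do not rank transcripts, because probes bind with different strength.

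The members nearest the limit from above were Mrps15, Mrps25 and Mrps31, with highest signals of 519, 525 and 538. Mrps15 also varied least, at 519, 486, 504.5 and 495 in the order wild type in normoxia, wild type in hypoxia, tri-CH1 in normoxia, tri-CH1 in hypoxia, which is kept from here on. In all, 9 further symbols of the family stayed under the limit, 7 of the large and 2 of the small subunit, and the nearest were Mrpl55, Mrpl18 and Mrpl37 with highest signals of 486, 442 and 431. Mrpl37 read 431, 342, 22.9 and 358, with tri-CH1 in normoxia apart from the other 3 arrays. The remaining symbols under the limit were Mrpl1, Mrpl19, Mrpl38, Mrpl47, Mrps5 and Mrps9. A further 3 probe sets named a family member together with another gene and were not used.

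Most mitochondrial ribosomal protein genes had lower signals in hypoxia than in normoxia, in each genotype, mostly by a small amount. In wild type the log2 change, hypoxia minus normoxia, was below 0 for 52 of 65 members, or 80.0%, against 56.7% of the 4645 genes at the limit, and above 0 for 13, against 42.7%. Its median over the members was -0.23, a signal 0.85 times that in normoxia, with quartiles of -0.40 and -0.05, while the median over all genes was -0.05. In tri-CH1, from a separate pair of arrays, 52 of 65 members were again below 0, against 53.5% of all genes, and 13 above 0, against 46.2%, with a median of -0.22 and quartiles of -0.40 and -0.04 against a median of -0.03 for all genes. Among the 3494 genes with a mean signal in the members' own range the medians were -0.06 and -0.03. The cells are a bulk sample, in which less of these RNAs per cell and fewer cells that hold them cannot be told apart.

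**Figure D1:**
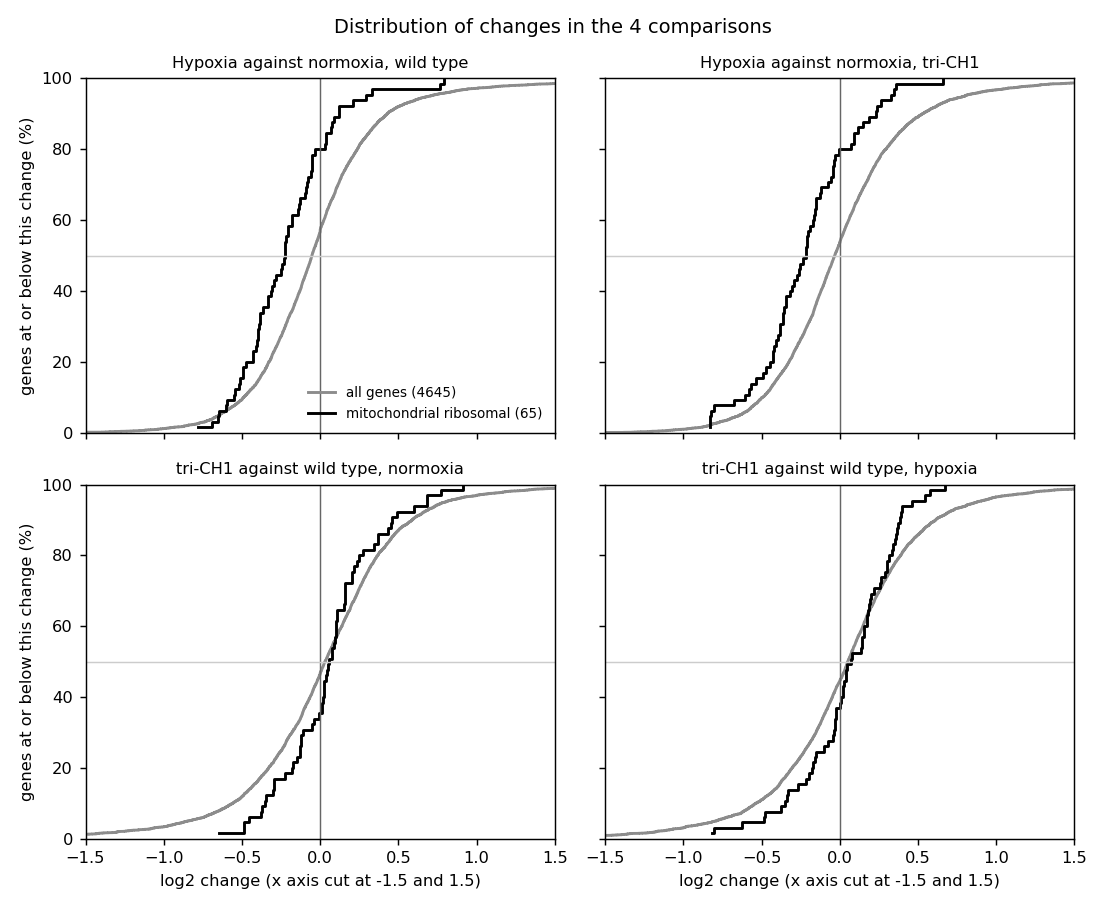
Cumulative distribution of the log2 change in signal in each of the 4 comparisons, for the 65 mitochondrial ribosomal protein genes (black) and the 4645 genes at 500 or more on any array (grey); the x axis is the log2 change, cut at 1.5 on either side of 0, and the y axis the percentage of genes at or below it. In both hypoxia panels the black curve lies left of the grey one, with medians of -0.23 and -0.22 against -0.05 and -0.03, while in the genotype panels the medians are 0.06 and 0.07 against 0.03 and 0.05.

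No member passed 2-fold in hypoxia. At 2-fold or more, 0 of 62 members bright enough to count in the wild-type hypoxia comparison were higher and 0 were lower, where 3.05% of all genes were higher and 1.19% lower; the corresponding shares in tri-CH1 were 3.19% and 0.987%, with 0 of 65 members in either direction. At 1.5-fold or more in wild type, 6 members were lower against a background of 6.79%, and 2 were higher against 6.91%. The 6 were Mrpl12, Mrpl22, Mrpl43, Mrps12, Mrps17 and Mrps18b, and the 2 were Mrpl45 and Mrpl48. In tri-CH1, 7 members were lower by 1.5-fold or more (Mrpl12, Mrpl16, Mrpl33, Mrpl34, Mrpl50, Mrps11 and Mrps30) against 6.36%, and 1, Mrps18c, was higher against 8.56%. Mrpl33 reached the limit only on the tri-CH1 normoxia array, so its lower value in tri-CH1 was partly set by the selection. With signals under 400 raised to 400 it was at -0.45, and 6 members were lower in tri-CH1. The counts above are of 1 to 7 genes. As shares of the counted members, the lower ones lay above the background and the higher ones below it, which was not tested. The lower count in wild type depended on the processing, with 2 members lower with cyclic loess and 3 with plain _at probe sets.

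Error between probe sets of the same gene gave a scale for single values. For 11 members a second or further probe set also reached 500, 15 probe sets in all. In wild type 14 of the 15 had the same sign of hypoxia change as the probe set used, and 13 were below 0, with a median of -0.18. In tri-CH1 only 6 of the 15 shared the sign, although 12 were below 0 with a median of -0.31. Differences between probe sets of a gene, divided by the square root of 2, had an SD of 0.18 and 0.30 on the log2 scale in wild type and tri-CH1. A hypoxia change of a single member near -0.2 therefore lay within the probe-set error, which does not include error between cultures or arrays.

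Over both genotypes 41 of 65 members, or 63.1%, were lower in hypoxia in each, against 38.2% of all genes, and 2, Mrpl48 and Mrps22, were higher in each, against 27.5%. Another 11 were lower in wild type and higher in tri-CH1, and 11 the reverse. For 32 members, or 49.2%, both hypoxia arrays were below both normoxia arrays, against 22.5% of all genes; they comprised 20 of the 40 large-subunit and 12 of the 25 small-subunit genes. The opposite order was seen for 1 member, Mrps22. The order of members by size of change was not shared: across the 65 genes, which are not independent replicates, the wild-type and the tri-CH1 hypoxia changes had a Pearson correlation of 0.16 and a Spearman correlation of 0.18, where all 4645 genes gave 0.61 and 0.44. The only member lower by 1.5-fold or more in both genotypes was Mrpl12, where 1.29% of all genes met that mark.

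**Figure D2:**
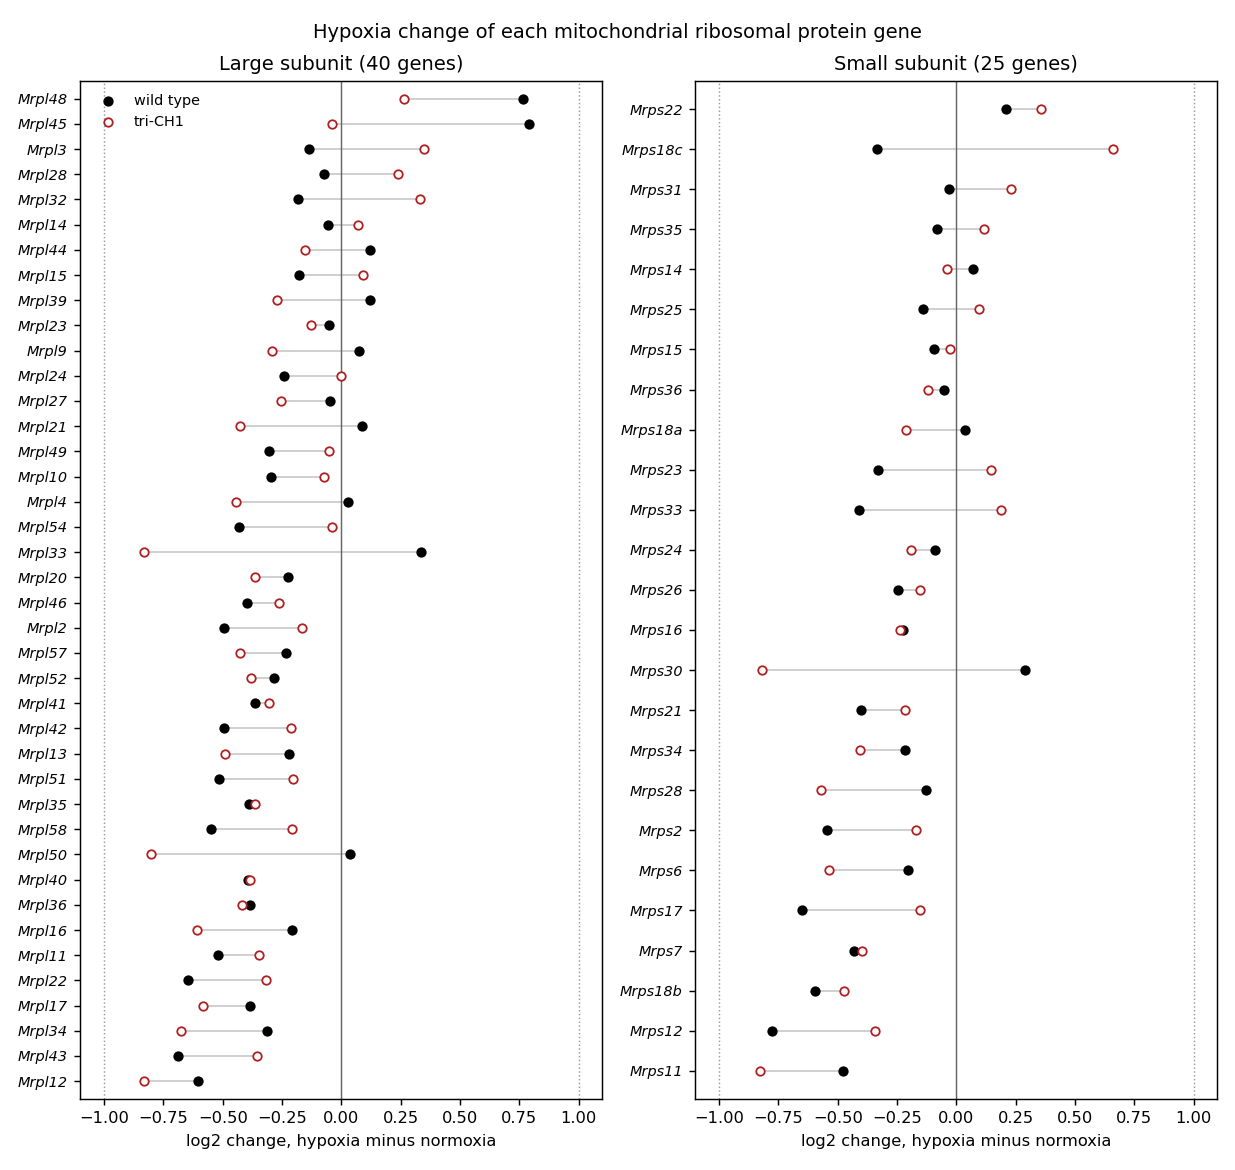
Log2 change in signal, hypoxia minus normoxia (x axis), of each of the 65 members (rows), from 1 array per group; black points are wild type, open red points tri-CH1, the panels are the large and the small subunit, and dotted lines mark a 2-fold change. In each genotype 52 of the 65 values lie below 0, and the values run from -0.78 to 0.79 for wild type, and from -0.83 to 0.66 for tri-CH1.

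Mrpl12 is the mitochondrial counterpart of bacterial L7/L12, the stalk protein that recruits elongation factors to the large subunit. Its signals were 1021 in wild type in normoxia, 672 in wild type in hypoxia, 1076 in tri-CH1 in normoxia and 604 in tri-CH1 in hypoxia. Both normoxia arrays were above 1000 and both hypoxia arrays below 700, a log2 change of -0.60 for wild type and -0.83 for tri-CH1, or 1.52-fold and 1.78-fold lower. The stalk is anchored by Mrpl10, at 1243, 1011, 1273 and 1211, and by Mrpl11, at 1394, 971, 1077 and 847. Mrpl11 was lower in hypoxia by more (-0.52 and -0.35) than Mrpl10 (-0.30 and -0.07), but a second probe set of Mrpl11 gave -0.18 and -0.74.

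The largest lower value in wild type belonged to Mrps12, the counterpart of bacterial S12, a protein of the decoding centre. Mrps12 read 1180.3, 688, 962 and 758, so both hypoxia arrays were lowest, and the log2 change was -0.78 for wild type and -0.34 for tri-CH1. Mrps11, a protein of the small subunit's platform, read 819, 589, 833 and 469, with changes of -0.48 and -0.83; both hypoxia arrays were again below both normoxia arrays. Mrpl43, a large-subunit protein without a bacterial counterpart, read 906, 562, 739.7 and 578, with -0.69 and -0.36. Mrps17, the counterpart of an RNA-binding protein that joins the bacterial small subunit early in assembly, read 1293, 823, 1365.5 and 1228. Its wild-type hypoxia array alone was low, which gave changes of -0.65 and -0.15.

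Against the general direction, Mrpl45 read 588, 1018, 678 and 660.1, so that the wild-type hypoxia array stood apart from the other 3, with a log2 change of 0.79 for wild type and -0.04 for tri-CH1. Mrpl45 lies at the exit of the peptide tunnel and helps hold the ribosome to the inner membrane. Mrpl48, a large-subunit protein, read 577.5, 982, 469.5 and 563.5, with changes of 0.77 and 0.26. The wild-type hypoxia array was again the high one, but a second, dimmer probe set of Mrpl48 read 455, 494, 648 and 458, with 0.12 and -0.50, and did not share it. Mrps22, a mitochondria-specific protein of the small subunit, was the member with both hypoxia arrays on top, at 679.7, 785, 601.5 and 770.1, with changes of 0.21 and 0.36.

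The promoters of these members are shown as examples of windows with and without the motifs counted below. RefSeq windows of 300 bases, from 250 before to 50 after the annotated start in GRCm38.p6, are printed for Mrps12 (chr7:28741772-28742071, minus strand), Mrpl43 (chr19:45006393-45006692, minus), Mrps11 (chr7:78782881-78783180, plus), Mrpl12 (chr11:120484387-120484686, plus) and Mrpl45 (chr11:97315466-97315765, plus). Each is written 5′ to 3′ on the gene's own strand, and capitals mark the core letters of an ETS site (CCGGAAG), of YY1 (AAGATGG) and of NRF1 (GCGCATG) on either strand.
Mrps12: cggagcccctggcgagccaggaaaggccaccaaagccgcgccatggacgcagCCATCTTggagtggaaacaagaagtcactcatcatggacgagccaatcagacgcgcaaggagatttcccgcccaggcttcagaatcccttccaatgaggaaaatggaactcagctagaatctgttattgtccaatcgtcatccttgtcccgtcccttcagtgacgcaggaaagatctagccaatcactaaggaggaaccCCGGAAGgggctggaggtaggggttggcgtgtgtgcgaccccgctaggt
Mrpl43: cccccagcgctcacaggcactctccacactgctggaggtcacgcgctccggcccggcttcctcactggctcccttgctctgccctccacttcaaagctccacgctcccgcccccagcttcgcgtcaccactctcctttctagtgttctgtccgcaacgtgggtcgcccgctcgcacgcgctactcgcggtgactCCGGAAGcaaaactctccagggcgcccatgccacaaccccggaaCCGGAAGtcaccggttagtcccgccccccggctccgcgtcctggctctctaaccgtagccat
Mrps11: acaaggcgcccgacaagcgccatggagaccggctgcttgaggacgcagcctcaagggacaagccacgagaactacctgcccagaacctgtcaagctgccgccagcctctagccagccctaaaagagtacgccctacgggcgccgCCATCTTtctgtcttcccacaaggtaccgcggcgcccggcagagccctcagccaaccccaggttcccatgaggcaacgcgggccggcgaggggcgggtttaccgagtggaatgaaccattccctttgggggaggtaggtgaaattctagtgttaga
Mrpl12: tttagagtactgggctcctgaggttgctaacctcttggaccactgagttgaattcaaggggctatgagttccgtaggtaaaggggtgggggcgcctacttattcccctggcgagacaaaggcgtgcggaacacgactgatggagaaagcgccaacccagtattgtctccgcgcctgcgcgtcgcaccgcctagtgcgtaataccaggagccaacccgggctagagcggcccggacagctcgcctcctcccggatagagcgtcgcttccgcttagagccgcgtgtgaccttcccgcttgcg
Mrpl45: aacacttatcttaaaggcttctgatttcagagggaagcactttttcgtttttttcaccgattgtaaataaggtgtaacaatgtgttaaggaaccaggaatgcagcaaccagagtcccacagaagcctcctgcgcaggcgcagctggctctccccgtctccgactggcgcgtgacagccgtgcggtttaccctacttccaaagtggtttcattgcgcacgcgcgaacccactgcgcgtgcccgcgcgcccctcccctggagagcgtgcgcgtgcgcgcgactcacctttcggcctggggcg
The window of Mrps12 held an ETS core and a YY1 core, that of Mrpl43 held 2 ETS cores, and that of Mrps11 held a YY1 core. Neither Mrpl12, lower in hypoxia in both genotypes, nor Mrpl45, higher in wild type, held any of the 3, which says only that these letters are not in the window. Of other members with large hypoxia changes, Mrps17, among the lowest in wild type, and Mrpl48, among the highest, held none. The windows of Mrpl33, Mrps18c, Mrps22 and Mrpl3, each higher in hypoxia in at least 1 genotype, held an ETS core. Of these, Mrps22 was higher in both genotypes, while Mrpl33 was lower in tri-CH1 (-0.83), and Mrps18c and Mrpl3 lower in wild type (-0.33 and -0.14). These members were picked by their changes, and a relation of motif and direction was not tested.

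A window was found for 58 members, and not for Mrpl4, Mrpl13, Mrpl15, Mrpl54, Mrps28, Mrps34 and Mrps35. An ETS core, bound by GABP among others, was in 22 of the 58 windows (37.9%), against 21.8% of 3746 windows of the other genes at the limit and 11.9% of all 17491 protein-coding windows. The YY1 core was in 11 (19.0%), against 8.54% and 6.37%, and the NRF1 core in 8 (13.8%), against 8.41% and 4.88%; NRF1 and GABP are known regulators of nuclear genes for mitochondrial proteins. At least 1 of the 3 was in 33 windows, or 56.9%, against 1274 of the 3746 and 21.0% of all coding windows. The core of the hypoxia-inducible factor site (ACGTG or GCGTG) was in 37, or 63.8%, between the 68.2% of other genes at the limit and the 49.2% of all coding genes. The E-box CACGTG, which contains one form of that core, was in 4 windows (6.90%), against 11.4% and 7.90%.

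Medians were below 0 both with and without each of these letters. With an ETS core the median log2 change was -0.32 for wild type and -0.25 for tri-CH1, and without it -0.21 and -0.18. For the YY1 core the medians were -0.39 and -0.34 with it and -0.23 and -0.21 without. For the NRF1 core they were -0.24 and -0.31 with it and -0.24 and -0.21 without. The HIF core ran the other way in wild type, with medians of -0.23 with it and -0.33 without, against -0.26 and -0.21 in tri-CH1; for the E-box they were -0.36 and -0.26 with it and -0.24 and -0.22 without. A match of letters is a description and no evidence of binding.

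Many members begin next to another gene. In 18 of 58 (31.0%) a protein-coding gene started on the opposite strand within 1000 bases upstream, against 13.4% of the other genes at the limit and 8.04% of all coding genes. Mrps11 and Mrpl46, genes for proteins of the 2 different subunits, start 42 bases apart and head away from each other. Mrpl46 read 578, 439, 598 and 498, so that it shared with Mrps11 the order of both hypoxia arrays below both normoxia arrays. Mrps12 starts 147 bases from Sars2, the gene for the mitochondrial seryl-tRNA synthetase, which stayed under the limit at 240.0, 105, 213 and 192. Members with such a neighbour had median hypoxia changes of -0.38 and -0.32, and those without it -0.22 and -0.20. Of the 18 neighbours 7 reached the limit, with Mrps11 and Mrpl46 each counted for the other. In both genotypes 5 of the 7 were below 0, against 38.2% of all genes. Fau, 192 bases from Mrpl49, was at 0.29 and 0.12, and Klc4, 141 bases from Mrpl2, at 0.94 and -0.74. A relation between neighbours was not tested.

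The subunits were close to each other in hypoxia. In wild type the median log2 change was -0.24 over the 40 large-subunit genes and -0.22 over the 25 small-subunit genes, with 31 and 21 of them below 0. In tri-CH1 the medians were -0.28 and -0.17, with 34 of 40 and 18 of 25 below 0. The difference between the medians, large minus small, was -0.02 and -0.11. Within a subunit the SD over members was between 0.26 and 0.35. The difference changed sign in wild type (0.18) and in tri-CH1 (0.039) when members had to reach 1000, and in tri-CH1 it was 0.019 with means over all probe sets. Structures of the mammalian ribosome place the products of Mrps18a and Mrps30 in the large subunit, and with them there the medians were -0.23 and -0.28 for 42 genes and -0.23 and -0.16 for 23.

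Origin was assigned by a fixed list of symbol numbers, in which, of the genes related to bacterial S18, only Mrps18c counted as its homologue. Subunit went by the letter of the symbol here, so Mrps18a and Mrps30 stayed in the small subunit. The 37 members with a bacterial homologue had medians of -0.22 (wild type) and -0.29 (tri-CH1), and the 28 mitochondria-specific members -0.24 and -0.21. The 13 small-subunit members with a bacterial homologue were below 0 in 12 cases in each genotype, with medians of -0.33 and -0.22. The 12 small-subunit members counted as mitochondria-specific had medians of -0.11 and -0.01, with 9 and 6 below 0. With Mrps18a and Mrps18b, which are also related to S18, moved to the bacterial class, the 15 bacterial members had -0.33 and -0.22, with 13 and 14 below 0, and the remaining 10 had -0.11 and 0.10, with 8 and 4 below 0. These 10 include Mrps22, Mrps23, Mrps25, Mrps31, Mrps33 and Mrps35, which were above 0 in tri-CH1. They also include Mrps36, at 859.7, 829, 886 and 815, whose product is now known as a part of the oxoglutarate dehydrogenase complex and not of the ribosome.

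Of 5 members around the exit of the peptide tunnel, 3 were below 0 in wild type and all 5 in tri-CH1. The shares below 0 were 56.7% and 53.5% over all genes, and 80.0% over the members in each genotype. In tri-CH1 Mrpl24 and Mrpl45 were near 0, at -0.002 and -0.04. Mrpl22 read 900.2, 576, 895 and 717, with log2 changes of -0.64 and -0.32. Mrpl23 read 1176, 1134, 1419.1 and 1299, with -0.05 and -0.13. Mrpl24 read 1029, 870.0, 1072 and 1070.2, with -0.24 in wild type and its tri-CH1 arrays nearly equal. Mrpl44 stood at 542, 589, 741 and 666, with 0.12 and -0.15, and Mrpl45 was the high value of wild type given above. Among proteins of the core around the peptidyl transferase centre, Mrpl2 read 999, 709, 1162 and 1036 and Mrpl3 read 807.5, 735, 714 and 908. Mrpl3 was thus lower in wild type (-0.14) and higher in tri-CH1 (0.35), where its second probe set gave -0.36 and -0.02. Mrpl16 read 1326, 1148, 1347 and 883, with -0.21 and -0.61.

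**Figure D3:**
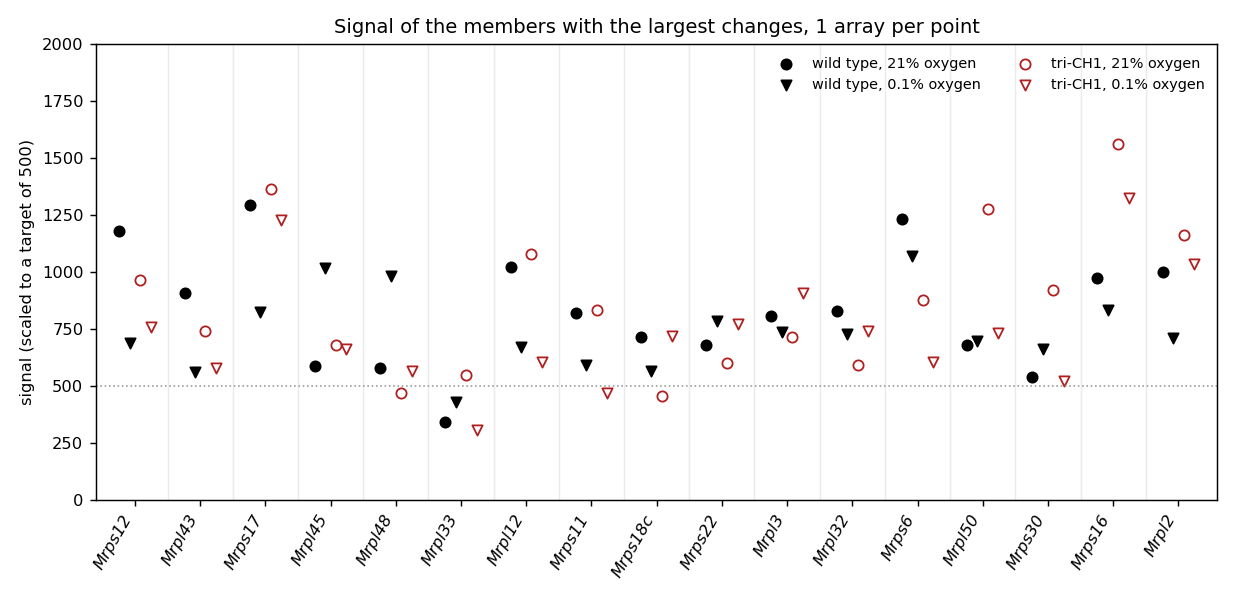
Signal of the members with the largest changes on each of the 4 arrays, scaled to a target of 500; filled black symbols are wild type and open red symbols tri-CH1, circles are 21% and triangles 0.1% oxygen, and the dotted line is the limit of 500. Mrpl12 has both triangles (672 and 604) below both circles (1021 and 1076), whereas for Mrpl45 and Mrpl48 the wild-type hypoxia array alone is high, at 1018 and 982, and for Mrpl50 the tri-CH1 normoxia array, at 1277.5.

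The response of the 2 genotypes to hypoxia, taken as the log2 change of tri-CH1 less that of wild type, had a median of 0.04 over the members and 0.03 over all genes. It was above 0 for 35 members (53.85%), against 53.02% of all genes, and below 0 for 30, against 46.98%. Mrpl33, a large-subunit protein, was at the negative end, with signals of 339, 428, 545 and 306.2: higher in hypoxia in wild type (0.33) and lower in tri-CH1 (-0.83). Apart from tri-CH1 in normoxia those signals are under 500, and the second Mrpl33 probe set was under 200 on every array. Mrps30 read 539, 659, 921.5 and 522, with 0.29 and -0.82. At the positive end Mrps18c, the counterpart of bacterial S18, read 714, 566.5, 455 and 719, with -0.33 and 0.66.

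Between genotypes the members lay close to the background. In normoxia the log2 difference, tri-CH1 minus wild type, was above 0 for 42 of 65 members (64.6%), against 53.3% of all genes, and below 0 for 23, against 46.4%, with a median of 0.06 against 0.03. In hypoxia it was above 0 for 41 (63.1%), against 55.5%, and below 0 for 24, against 44.5%, with a median of 0.07 against 0.05. With each array scaled to the same median, which moves the median of all genes in normoxia to -0.20, the members' median turned to -0.16, 0.04 above that of all genes. Under that scaling the hypoxia value was -0.01 for the members and -0.03 for all genes. This scaling moves all genes of an array alike, and relative to all genes the members stayed slightly above 0 (0.03 before and 0.04 after in normoxia, 0.02 and 0.03 in hypoxia).

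No member differed by 2-fold between genotypes. In normoxia 0 of 63 counted members were higher, against 3.16% of genes, and 0 were lower, against 3.48%; in hypoxia 0 of 62 were higher, against 3.76%, and 0 lower, against 3.31%. At 1.5-fold in normoxia 5 members were higher (Mrpl27, Mrpl33, Mrpl50, Mrps16 and Mrps30) against 10.2%, and 1 was lower (Mrps18c) against 9.51%; with median scaling these counts were 1 and 6. Mrpl33 reached the limit only on the tri-CH1 normoxia array, so its higher value was partly set by the selection. With signals under 400 raised to 400, 4 members were higher. In hypoxia 1 was higher (Mrps16) against 10.9%, and 3 were lower (Mrpl45, Mrpl48 and Mrps6) against 8.88%. These shares do not exceed the background in any of the 4 cases. Acta1, a muscle actin gene, was lower in tri-CH1 on both array pairs, and with it the summed signal of 4 muscle markers was 3952 and 3622.5 in wild type against 1161 and 999 in tri-CH1; the part of Acta1, and of the lower Thy1, in the genotype values was not tested.

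Mrps16, a small-subunit protein with a bacterial homologue, was the member higher by 1.5-fold or more at both oxygen levels. It read 972.5, 831, 1562 and 1325, so that both tri-CH1 arrays were above both wild-type arrays, with log2 differences of 0.68 and 0.67. Mrps6 was the largest lower value in hypoxia, at 1230.3, 1067, 877 and 605. Its differences were -0.49 and -0.82, and both tri-CH1 arrays were below both wild-type arrays. Mrpl50, a mitochondria-specific large-subunit protein, read 679, 695, 1277.5 and 733 in the order of the groups above. Its difference of 0.91 in normoxia and 0.08 in hypoxia came with 1 high array, as did the 0.77 and -0.34 of Mrps30. Mrpl32, at 826, 728, 589 and 740.0, was lower in normoxia (-0.49) and at 0.02 in hypoxia, with tri-CH1 in normoxia as its low array. Mrpl2 and Mrps17 were higher in tri-CH1 in hypoxia by 0.55 and 0.58, and by 0.22 and 0.08 in normoxia.

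**Figure D4:**
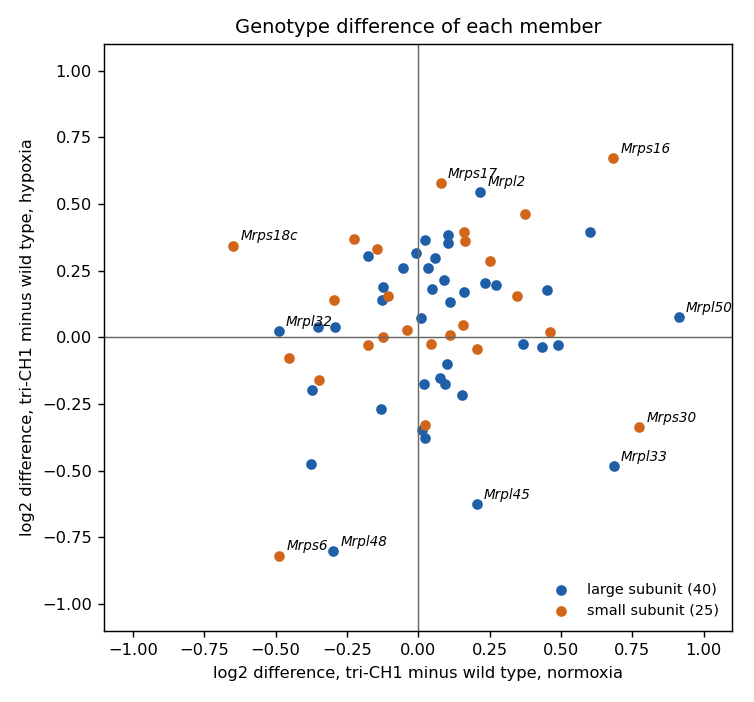
Log2 difference between genotypes, tri-CH1 minus wild type, of the 65 members in normoxia (x axis) and in hypoxia (y axis), 1 array per group; blue points are large-subunit and orange points small-subunit genes. Points fall on both sides of 0 at each oxygen level, with medians of 0.06 and 0.07, and Mrps16 lies at 0.68 and 0.67.

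In all, 26 members were higher in tri-CH1 at both oxygen levels (40.0%, against 39.7% of all genes) and 8 were lower at both (12.3%, against 30.8%). The 8 were Mrpl11, Mrpl20, Mrpl48, Mrpl52, Mrps2, Mrps21, Mrps22 and Mrps6. The remaining 31 members had opposite signs at the 2 oxygen levels. Across the 65 genes the genotype differences in normoxia and hypoxia, which share no array, had a Pearson correlation of 0.18, where all genes gave 0.70. The tri-CH1 normoxia array was the highest of the 4 for 38 members, and the wild-type hypoxia array the lowest for 34. The shares over all genes were not counted, so whether this is particular to the members is not known. The tri-CH1 normoxia and the wild-type hypoxia array each enter 1 hypoxia comparison and 1 genotype comparison, so a high or low value there moves both. Of the 15 further probe sets, 4 shared the sign of the genotype difference of the probe set used in normoxia, where their median was -0.12 with 8 below 0, and 10 shared it in hypoxia, where their median was -0.03. The SD between probe sets of a gene was 0.34 and 0.28.

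Other genes of mitochondrial translation gave a background for the family. Proteins of the same ribosome under other symbols were measured for 4 genes at the limit, with median hypoxia changes of -0.15 and -0.17. Dap3, a GTP-binding small-subunit protein, had the highest hypoxia change of them, at 1272, 1437, 1256 and 1596.5, with 0.18 and 0.35. Gadd45gip1, a large-subunit protein, read 557, 517, 301 and 197, so that both tri-CH1 arrays were below both wild-type arrays. Its tri-CH1 hypoxia signal lay under the floor, and in hypoxia it was at least 2.58-fold lower in tri-CH1, the only gene of the 4 past 2-fold in any comparison.

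Factors that assemble the ribosome or modify its RNA had lower signals in hypoxia where they reached the limit. Of 17 such genes on the array 4 reached the limit, and all 4 were below 0 in both genotypes, against 38.2% of all genes. The medians over these 4 genes were -0.47 and -0.40, and none passed 2-fold. Mtg1, a GTPase of large-subunit assembly, had the largest lower value in wild type, at 591 in normoxia and 378 in hypoxia, with 755 and 628 in tri-CH1. Dhx30, an RNA helicase, read 783, 518, 714 and 512, and Eral1, a chaperone of the small ribosomal RNA, read 629, 535.5, 609 and 429.9. C1qbp, a matrix protein bound to the ribosome, read 5991, 4738, 6871 and 5478. In each of these 3 genes both hypoxia arrays were below both normoxia arrays.

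Translation factors and RNA-stability factors at the limit, 6 genes, had a median of -0.25 in wild type, with all 6 below 0, against 56.7% of all genes. In tri-CH1 the median was -0.12, with 3 below 0, against 53.5% of all genes. Lrpprc, which stabilises mitochondrial messenger RNA, read 478, 399.8, 287 and 614 and was the 1 gene of the list past 2-fold, 2.14-fold higher in hypoxia in tri-CH1. Its partner Slirp read 1571, 1552, 1799.5 and 1354 and did not share that change. Tufm, the elongation factor that brings aminoacyl-tRNA, read 572, 344, 432 and 488.5, with changes of -0.73 and 0.18. Pdf, which deformylates new peptides, was the lowest in tri-CH1 at -0.84, from 531 to 296.

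Of the aminoacyl-tRNA synthetase list, 4 of 13 genes on the array reached the limit, with medians of -0.15 and -0.18. The 4 were Gars, Kars, Rars2 and Gatc, so these medians do not stand for purely mitochondrial synthetases. Rars2, the mitochondrial arginyl-tRNA synthetase, read 633, 367, 948.5 and 739; it was 2.01-fold higher in tri-CH1 than in wild type in hypoxia, with the wild-type hypoxia array as the low one. Genes of mitochondrial transcription and DNA upkeep had median changes of 0.05 and 0.23 over 4 genes. Ssbp1, the single-strand binding protein of mitochondrial DNA, was the highest of them, at 996, 1215, 922 and 1620.1. Cox18, an inner-membrane insertase, was the only gene of its list at the limit, with -0.31 and -0.58.

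Among regulators of mitochondrial biogenesis 3 of 10 genes reached the limit, and the transcripts of Nrf1, Gabpa and Ppargc1a did not. Mxi1, a MYC antagonist known to be induced by hypoxia, rose from 335 to 1788 in wild type and, in tri-CH1, from 338 to 1273, log2 changes of 2.42 and 1.91. Myc, a known activator of ribosomal and mitochondrial genes, read 1465, 1050.5, 695 and 1022, and was 2.11-fold lower in tri-CH1 than in wild type in normoxia. Its hypoxia changes were -0.48 and 0.56. The part of any of these regulators in the members' signals was not tested. Yy1 read 1256, 1429, 1022 and 1129.7, with 0.19 and 0.14.

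Genes for proteins of the cytosolic ribosome were on the other side of 0 in wild type. Their median over 41 genes was 0.07 with 12 below 0, where the 65 mitochondrial members had -0.23 with 52 below 0. In tri-CH1 the cytosolic median was -0.13 with 33 of 41 below 0, so that there both families lay below the median of all genes of -0.03. Rps27 alone passed 2-fold, with 1057 in wild type in normoxia, 402 in wild type in hypoxia, 767 in tri-CH1 in normoxia and 838 in tri-CH1 in hypoxia. The low wild-type hypoxia array put it 2-fold or more lower in hypoxia in wild type (-1.40) and higher in tri-CH1 in hypoxia (1.06). Between genotypes the cytosolic medians were 0.16 in normoxia and -0.06 in hypoxia.

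**Figure D5:**
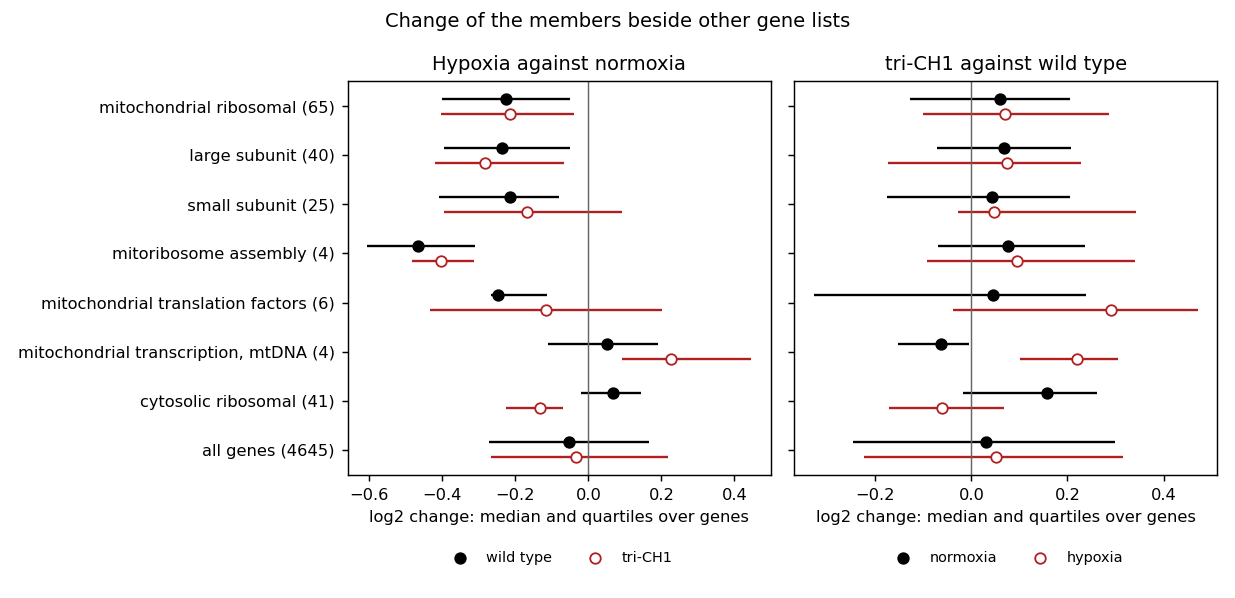
Median (point) and quartiles (line) of the log2 change over the genes of each list at 500 or more on any array, with the number of genes in brackets; the left panel is hypoxia against normoxia in wild type (black) and tri-CH1 (red), and the right panel tri-CH1 against wild type in normoxia (black) and hypoxia (red). The lines are the spread over genes and not an error between cultures; the mitochondrial ribosomal genes lie at -0.23 and -0.22 in the left panel, the assembly factors at -0.47 and -0.40, and the cytosolic ribosomal genes at 0.07 and -0.13.

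Values of the arrays themselves stood beside the hypoxia result as follows. The wild-type comparison sets the array of the other lot, with a scale factor of 3.46, against one of 6.73, and the background after scaling was 139 and 246. The tri-CH1 comparison uses arrays of 1 lot, with scale factors of 10.3 and 8.70 and a background of 343 and 393. The members' medians in the 2 comparisons were -0.23 and -0.22. The 3′ to 5′ ratio of Gapdh was 0.67 in normoxia and 0.71 in hypoxia for wild type, and 0.63 and 0.75 for tri-CH1, while that of Actb was 1.24 and 1.43, and 1.32 and 1.23. Of 5 epithelial markers, Krt19 was higher in hypoxia in both genotypes, so that their summed signal went from 985 to 4817 in wild type, and in tri-CH1 from 1251 to 3224, with Epcam and Cdh1 under 200. The part of these in the members' lower signals was not tested.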

How the data were processed

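Fibroblast RNA of 4 groups was measured on 1 Affymetrix array each. Per the labels, the authors derived the signal intensity of a probe set by Affymetrix's statistical algorithm and scaled each array to a target of 500; the deposited intensity values are linear, and their trimmed mean was 500.2 on each array. Software name and version are not given in the sources used here.

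Of 22690 probe sets, 20380 had 1 symbol in the platform annotation, 691 had several, 1555 had none and 64 were controls. Each of 12393 genes was read from its brightest probe set on average. Of the 65 members, 37 had 1 probe set and 28 several. Signals under 200 were raised to 200, differences were taken on the log2 scale, and a gene counted in a comparison if its brighter array had 500 or more. Calls were made by size, at 2-fold and 1.5-fold, without a test. Members, lists and alternatives were chosen with earlier results of these data known. Members were named if past 2-fold, among the 3 largest rises or falls of a comparison, among the 3 highest or lowest mean signals, next to the limit, or past 1.5-fold the same way in both hypoxia or both genotype comparisons; others named for their role, their list or a count were chosen after their values were seen. List genes were named if past 2-fold or the largest rise or fall.

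Alternatives were floors of 100 and 400 and none, a minimum of 250 or 1000, cyclic loess and quantile normalization (limma 3.58.1 in R 4.3.3), median scaling, means over all probe sets, plain _at probe sets, and the subunit of Mrps18a and Mrps30. Means over probe sets at 500 or more, a background of genes in the members' signal range, and Mrps18a and Mrps18b as bacterial homologues, were added after seeing the data. Promoter windows came from RefSeq (GRCm38.p6) by gene identifier, using the first window listed for each gene. Other steps ran in Python 3.11.15 with pandas 2.3.3. Of these, the fold rule alone was tested on simulated data, for genes with a mean signal of 1000 or more.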

Additional observations from a re-analysis of the deposited data

Results flagged for a closer look

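For Mrpl33 and Mrps30 the hypoxia changes of the genotypes had opposite signs and lay furthest apart, and the difference was not tested, since each group had 1 array. Mrpl33 changed by 0.33 on the log2 scale in wild type and by -0.83 in tri-CH1, a difference of -1.17. With signals under 400 raised to 400 its changes were 0.10 and -0.45. Mrps30 changed by 0.29 in wild type and by -0.82 in tri-CH1, a difference of -1.11. For both genes the tri-CH1 normoxia array was the highest of the 4, at 545 for Mrpl33 and 921.5 for Mrps30.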

How the results depend on the processing

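No paired analysis was possible because each group had 1 array. The members' medians moved by less than 0.1 in 52 of 55 alternatives. The exceptions were the tri-CH1 hypoxia median with a minimum of 1000 (-0.32 over 32 members, all genes -0.02), and, with median scaling, the genotype median in normoxia (-0.16, all genes -0.20) and the response difference (0.18, all genes 0.18). Part of the 52 was fixed in advance, since no member signal was under 200 and a floor of 100 or none could change no member value. The medians were also the same with a floor of 400. Medians near 0 changed sign from above to below 0, which was not scored as a reversal. Their lowest values were -0.16 and -0.007 for the genotypes in normoxia and hypoxia, and -0.04 for the response difference. Relative to all genes the hypoxia medians ran from -0.22 to -0.15 (wild type) and -0.30 to -0.17 (tri-CH1). The share of members below 0 ran from 72.3% to 87.7% (wild type) and 70.8% to 90.6% (tri-CH1). The large minus small difference moved with a minimum of 1000 to 0.18 for hypoxia in wild type, 0.039 for hypoxia in tri-CH1 and -0.084 for the genotypes in hypoxia. It moved with means over all probe sets to 0.019 for hypoxia in tri-CH1 and to -0.085 for the genotypes in hypoxia, and with Mrps18a and Mrps30 in the large subunit to -0.083 for the latter. Counts at 1.5-fold moved as follows. In wild type 2 members were lower in hypoxia with cyclic loess, 10 with median scaling and 3 with plain _at probe sets, against 6, and 1 was higher with a minimum of 1000 or either mean, against 2. In tri-CH1 2 were higher with a minimum of 250 and 0 with 1000, against 1, and 3 were lower with a minimum of 1000 or means over all probe sets, against 7. Between genotypes in normoxia 3 were higher with a minimum of 1000 or means over all probe sets and 1 with median scaling, against 5. There 2 were lower with a minimum of 250 or plain _at probe sets, 0 with 1000 and 6 with median scaling, against 1. In hypoxia 0 were higher and 5 lower with plain _at probe sets, against 1 and 3. At 2-fold the 1 moved count was that of Mrpl37, lower by genotype in normoxia at a minimum of 250. Of 241 values of single members 227 kept within 0.1, and 0 of those at 1.5-fold or more changed sign. The 227 include all values with a floor of 100 or none, which could not move them. The cause of these moves was not tested. With 1 array per group no error between cultures is known, and signal over background limits the dimmer members most.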
